A study of Mus musculus with 18 samples.

Results

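Triadin, encoded by Trdn, is represented on the mouse gene array by 19 separate transcript clusters, out of 35556 in all. A transcript cluster is a set of probes summarised into 1 value, and the members here are all the clusters whose annotation names Trdn and no other gene. The gene was selected on its log2 signals after differentiation, where earlier results of these data had PIP4K2B depletion and KK-TAF3 moving it in opposite directions. Each cluster was kept apart, because a value for Trdn depends on which of the 19 is read. RNA was measured in C2C12 cells, a mouse myoblast line that stops dividing and fuses into myotubes when serum is lowered. Each of the 18 arrays belongs to 1 of 6 groups of 3. The groups were KK-TAF3 sh-PIP4K2B, WT-TAF3 sh-PIP4K2B and WT-TAF3 shX cells, each treated with etoposide (10 µM, 7 hours) or differentiated in low serum. The array labels give 2 days of differentiation, whereas the design text of the series gives another length. In all 6 groups, controls included, the cells' own TAF3 had been depleted by shRNA and replaced by introduced murine TAF3. KK-TAF3 is a mutant that no longer binds phosphoinositides, and sh-PIP4K2B is an shRNA against the phosphoinositide kinase PIP4K2B. The labels of the WT-TAF3 cells without that shRNA name no control vector, and shX is the paper's name for it. The cells were stably transduced populations, made with retroviral and lentiviral constructs. There was no KK-TAF3 group without PIP4K2B depletion, and no untreated group of proliferating cells.

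Triadin is a membrane protein of the junctional sarcoplasmic reticulum, the calcium store of muscle. It binds the ryanodine receptor, through which calcium leaves the store, and calsequestrin, which holds calcium inside it, and so helps to anchor the release complex where the store meets the cell surface. Its transcript is a product of differentiating and mature muscle, and alternative splicing gives isoforms that differ between skeletal and cardiac muscle. Etoposide poisons topoisomerase II and leaves breaks in DNA. The deposited table gives no genome build and names no exon for a cluster, so the part of the transcript that each of the 19 reads is not given here.

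Replicate arrays correlated at r = 0.990 to 0.997 over all clusters, and array medians were 7.25 to 7.46 on the log2 scale. Pip4k2b signals of sh-PIP4K2B and shX arrays did not overlap in either treatment, and all shX arrays were the higher ones. Of 10 markers of skeletal myoblasts and myotubes, 8 or 9 stood above the median cluster in each group, against 0 of 4 endothelial and at most 1 of 6 macrophage markers. Of 6 heart markers 2 or 3 did, among them Nkx2-5, and of 6 fat cell markers 3 did.

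The 19 clusters differed widely in signal. Mean log2 signal over all arrays was 10.41 for cluster 10362420, the brightest, and 3.43 for cluster 10362454, the dimmest, which placed them above 82.6% and 1.99% of all clusters. Clusters 10362432, 10362404, 10362434 and 10362422 also averaged above 9, at 9.78, 9.66, 9.60 and 9.50. A further 11 averaged between 5 and 9, and 3 (10362456, 10362416 and 10362454) below 5. Signal depends on the probes of a cluster, so this order describes the probes as much as the transcript, and no cluster's level is set against another's as an amount of RNA. Pooled SD between replicate arrays ran from 0.13 for 10362432 to 0.63 for 10362426. In 13 of the 19 clusters it was larger among etoposide-treated than among differentiated arrays.

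**Figure D1:**
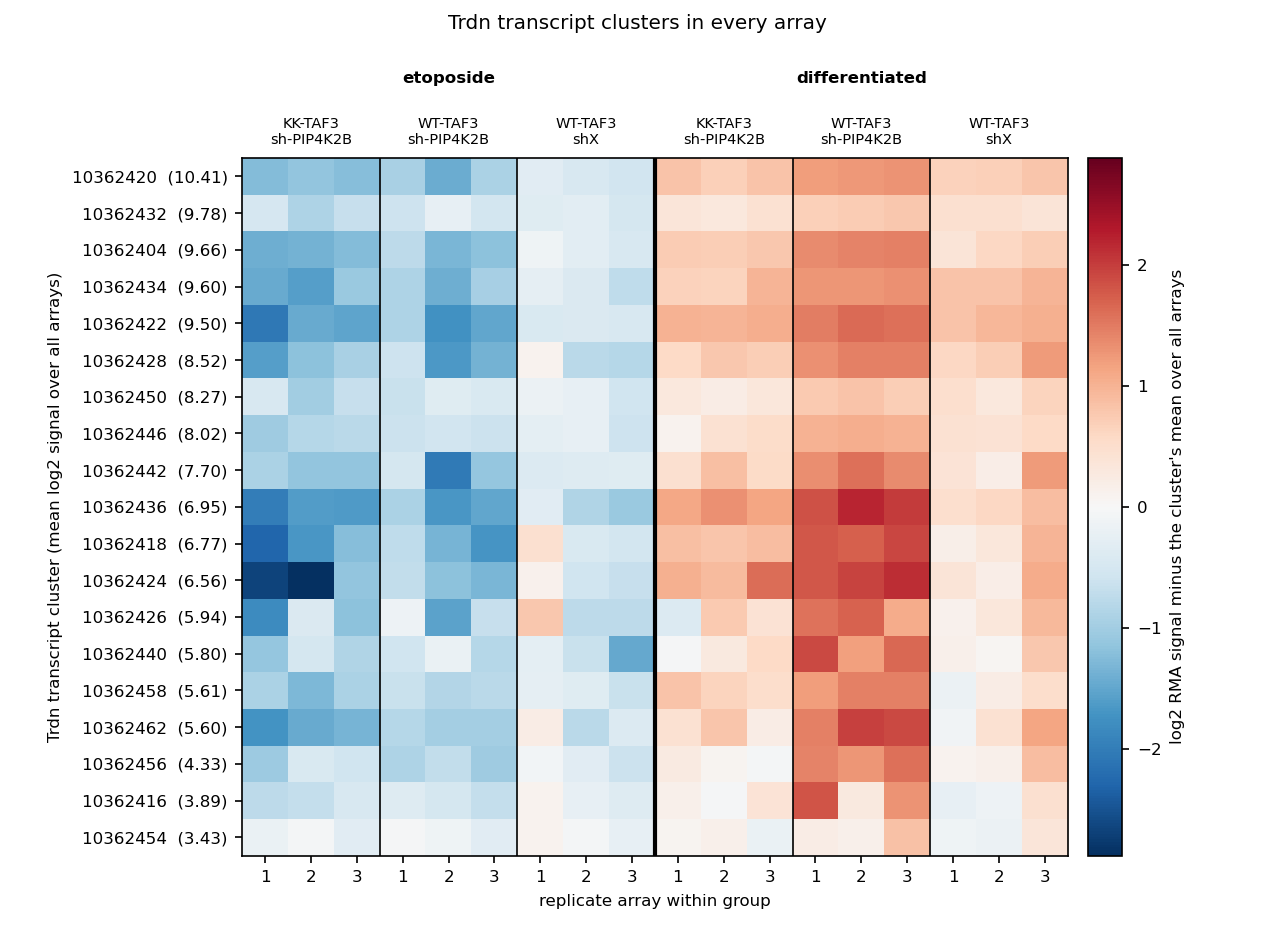
Each row is 1 of the 19 Trdn clusters, ordered by mean signal (in brackets), and each column 1 of the 18 arrays, with etoposide-treated groups on the left and differentiated groups on the right. Colour gives the log2 RMA signal minus the cluster's mean over all arrays. The reddest block is WT-TAF3 sh-PIP4K2B after differentiation, and the bluest cells lie in the 2 sh-PIP4K2B groups after etoposide.

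Cluster 10362420 showed the pattern that most of the others shared. After etoposide its log2 signal was 9.17, 9.27 and 9.19 on the KK-TAF3 sh-PIP4K2B arrays, 9.49, 8.98 and 9.50 on the WT-TAF3 sh-PIP4K2B arrays and 10.08, 9.94 and 9.86 on the WT-TAF3 shX arrays. After differentiation it was 11.24, 11.09 and 11.24 in KK-TAF3 sh-PIP4K2B, 11.62, 11.67 and 11.70 in WT-TAF3 sh-PIP4K2B and 11.07, 11.09 and 11.22 in WT-TAF3 shX cells. All differentiated arrays thus lay above all etoposide-treated ones, and within each treatment the WT-TAF3 sh-PIP4K2B and shX arrays did not overlap. They stood in opposite order, however: WT-TAF3 sh-PIP4K2B was higher than shX after differentiation and lower than shX after etoposide.

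To summarise the gene without ranking probe sets by brightness, each cluster was set to its own mean over the 18 arrays, and the median of the 19 centred values was taken on each array. It averaged -1.15 ± 0.08 in KK-TAF3 sh-PIP4K2B, -0.93 ± 0.27 in WT-TAF3 sh-PIP4K2B and -0.38 ± 0.20 in WT-TAF3 shX cells after etoposide. After differentiation it averaged 0.56 ± 0.11 in KK-TAF3 sh-PIP4K2B, 1.41 ± 0.04 in WT-TAF3 sh-PIP4K2B and 0.53 ± 0.32 in WT-TAF3 shX cells (SD, n = 3 each). WT-TAF3 sh-PIP4K2B after differentiation stood apart at the top, followed by KK-TAF3 sh-PIP4K2B and shX after differentiation, whose arrays overlapped (0.45 to 0.68 against 0.33 to 0.89). After etoposide the shX arrays (-0.57 to -0.17) lay above those of both other groups, and the KK-TAF3 and WT-TAF3 sh-PIP4K2B arrays overlapped (-1.24 to -1.07 against -1.18 to -0.64).

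The clusters moved together. Across the 9 differentiated arrays, Pearson's r was above 0 for all 171 pairs of clusters, with a median of 0.83 and a lowest value of 0.48. Across the 9 etoposide-treated arrays it was above 0 for 166 of 171 pairs, with a median of 0.67 and a lowest value of -0.38. The points of these correlations share their arrays and groups, so the values are a description. After each group's mean had been taken off, the median r was 0.48 and 0.43 over differentiated and etoposide-treated arrays, so that the clusters also shared the differences between replicates. Cluster 10362440 followed the brightest cluster least among etoposide-treated arrays (r = -0.10), and the dim 10362454 did so among differentiated ones (r = 0.66).

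Some arrays stood high or low for the whole gene. WT-TAF3 shX replicate 3 after differentiation had the highest signal of its group in 18 of 19 clusters. After etoposide, WT-TAF3 shX replicate 1 was highest of its group in 15 and replicate 3 lowest in 17, and WT-TAF3 sh-PIP4K2B replicate 1 was highest in 13. The array medians of these 4 arrays over all clusters were 7.35, 7.32, 7.40 and 7.32, within the range of the other arrays.

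In etoposide-treated cells Trdn was lower after PIP4K2B depletion, past the threshold in 3 clusters of high signal when all arrays were fitted together, and in none when only the arrays compared were. The choice of the gene rested on its values after differentiation. Limma's test over all 35556 clusters was applied, with a threshold of an adjusted p below 0.05 (Benjamini-Hochberg) and a change above 1.4-fold. The test is not independent of the choice, because its estimate of the spread also uses the differentiated arrays. The change, given as depleted minus shX cells, was below 0 for 18 of 19 clusters, where 46.2% of all clusters were, with a median of -0.60 (shX higher by 1.52-fold), beside a median of 0.01 over all clusters. Past the threshold 3 clusters fell and none rose, where 0.371% of all clusters fell. Beyond 1.4-fold lower were 12 of the 19, against 2.02% of all clusters, and in 10 every depleted array lay below every shX array, against 7.08% of all clusters.

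The 3 that passed were among the 5 brightest. Cluster 10362404 read 8.90, 8.35 and 8.48 in WT-TAF3 sh-PIP4K2B and 9.53, 9.36 and 9.19 in WT-TAF3 shX cells, a change of -0.78 (SE 0.12, adjusted p = 0.00394 by limma). Cluster 10362420 changed by -0.64 (SE 0.11, adjusted p = 0.00765 by limma), on the values given above. Cluster 10362422 read 8.61, 7.75 and 8.0 in WT-TAF3 sh-PIP4K2B and 9.07, 9.09 and 9.03 in WT-TAF3 shX cells, a change of -0.95 (SE 0.17, adjusted p = 0.0111 by limma). No depleted array of these clusters reached the lowest shX array. The depleted arrays spread more widely than the shX arrays in each of them, mainly through replicate 2 in 10362420 and replicate 1 in the others.

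The remaining clusters ran from -1.09 to 0.26 without passing. Cluster 10362418 had the lowest estimate, with 6.03, 5.43 and 5.08 in WT-TAF3 sh-PIP4K2B and 7.24, 6.33 and 6.23 in WT-TAF3 shX cells. Its groups did not overlap, but the 95% limits were wide (-1.74 to -0.44). Cluster 10362440 was the exception in sign, at 5.22, 5.60 and 4.97 in WT-TAF3 sh-PIP4K2B against 5.53, 5.16 and 4.32 in WT-TAF3 shX cells. Its arrays overlapped, and its 95% limits were -0.37 to 0.89. The 3 dim clusters had estimates of -0.10 to -0.53, with signals of 3.10 to 4.25 on all 6 arrays in the lowest part of the scale of the array.

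These calls rest on the spread pooled over all 6 groups, which the differentiated arrays made smaller. The SD over all groups was 0.14 in 10362420, 0.16 in 10362404 and 0.23 in 10362422. Within the etoposide-treated groups it was 0.19, 0.20 and 0.32. When the 6 arrays compared were fitted alone, no Trdn cluster passed, with or without the replicate number as a block (lowest adjusted p = 0.143 by limma with the block, where 12 clusters had an unadjusted p below 0.05 and a change beyond 1.4-fold, beside 2.01% of all clusters), and the share of all clusters past the adjusted threshold was 0% with the block and 0.0197% without it. Without WT-TAF3 sh-PIP4K2B replicate 2 the count was 1, and without replicate 1 of that group it was 8.

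**Figure D2:**
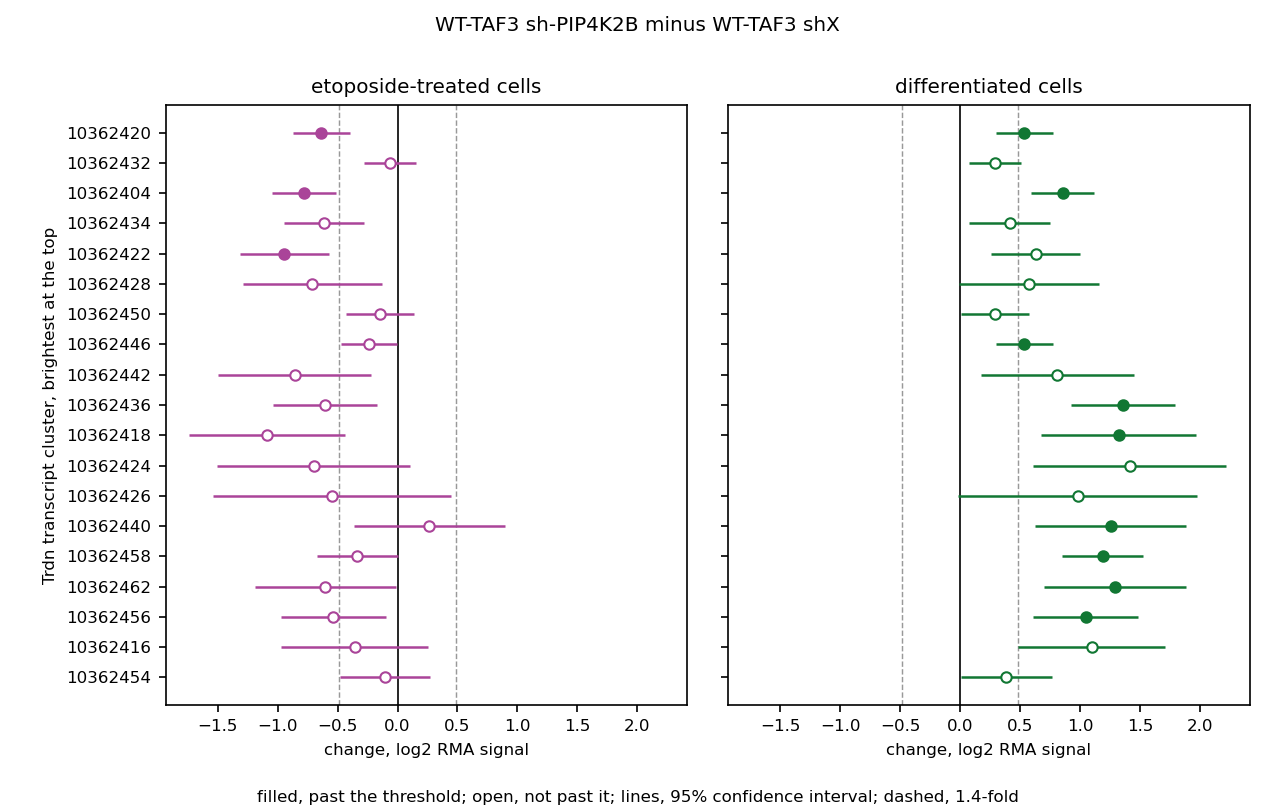
Difference in log2 RMA signal between depleted (WT-TAF3 sh-PIP4K2B) and WT-TAF3 shX cells for the 19 Trdn clusters, brightest at the top, in etoposide-treated cells on the left and differentiated cells on the right. Lines are 95% confidence intervals, filled points passed the threshold and dashed lines mark 1.4-fold. Points lie left of 0 for 18 clusters after etoposide and right of 0 for all 19 after differentiation.

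In differentiated cells the same comparison ran the other way. Trdn was chosen with these arrays in view, so the values, and the counts past the threshold, describe the pattern and support nothing. The change on depletion was above 0 for all 19 clusters, where 46.5% of all clusters were, with a median of 0.85 (1.81-fold), and 17 had every depleted array above every shX array, where 18.2% of all clusters did. The threshold was passed by 9, all higher, beside 0.495% of all clusters. Estimates were smaller for the bright clusters. The 5 clusters above 9 had a median of 0.53, the 11 between 5 and 9 one of 1.19 and the 3 below 5 one of 1.05, and across the 19 the change correlated with mean signal at r = -0.51. Cluster 10362432 (0.29), second in signal, and 10362450 (0.29) stood lowest, and 10362424 (1.41), 10362436 (1.36) and 10362418 (1.32) highest.

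Cluster 10362436 read 8.78, 9.14 and 8.96 in WT-TAF3 sh-PIP4K2B and 7.44, 7.53 and 7.84 in WT-TAF3 shX cells. Cluster 10362456, one of the dim ones, read 5.74, 5.60 and 5.91 against 4.43, 4.47 and 5.22 in the same groups. Among the bright clusters replicates were close together. Cluster 10362404 read 11.03, 11.08 and 11.10 in WT-TAF3 sh-PIP4K2B and 10.02, 10.26 and 10.37 in WT-TAF3 shX cells. With the array median as a covariate the median change was 0.50 and 3 clusters passed. Leaving out any array but shX replicate 3 left between 3 and 5.

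The opposite signs in the 2 treatments concerned 18 of the 19 clusters. In 9 of them every depleted array lay above every shX array after differentiation and below every shX array after etoposide, where 1.87% of all clusters did so. The difference between treatments was not tested, since 1 side of it is the comparison with which the gene was chosen.

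**Figure D3:**
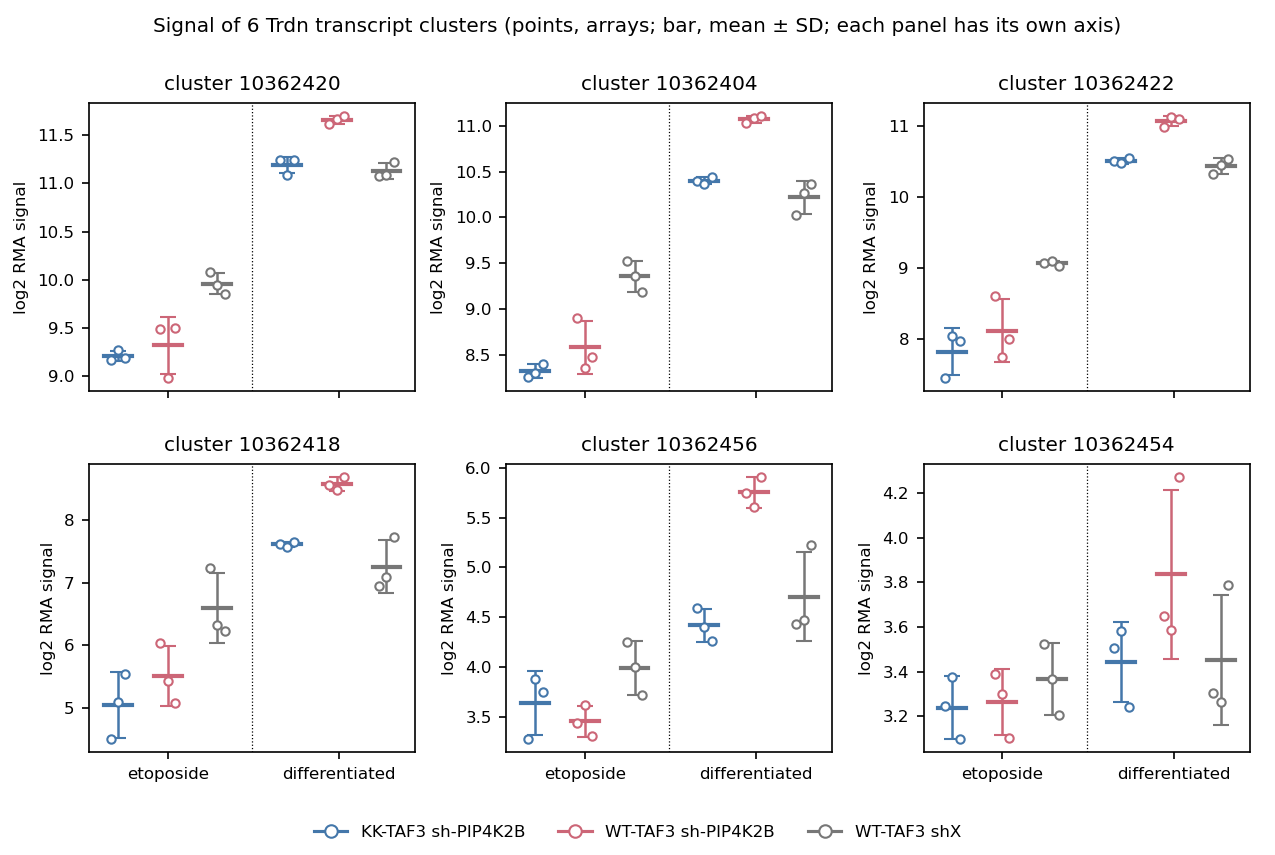
Log2 RMA signal of 6 Trdn clusters on single arrays (points) with mean and SD of 3 arrays (bars), in etoposide-treated and differentiated cells. The vertical axes differ and do not start at 0. In the first 5 clusters WT-TAF3 sh-PIP4K2B is the highest group after differentiation and lies below WT-TAF3 shX after etoposide. The means of 10362454, which stays between 3.10 and 4.27, have the same order, but its WT-TAF3 sh-PIP4K2B and shX arrays overlap in both treatments.

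KK-TAF3 cells had less Trdn signal than WT-TAF3 cells after differentiation, both carrying sh-PIP4K2B. This comparison was also in view when the gene was chosen, and it uses the same WT-TAF3 sh-PIP4K2B arrays as the depletion comparison, with the sign turned. The change was below 0 for all 19 clusters, where 45.3% of all clusters were, with a median of -0.72 (WT-TAF3 higher by 1.65-fold) and a range of -1.34 to -0.37. No array overlapped in 18 clusters, where 7.8% of all clusters had every KK-TAF3 array lower, and 15 lay beyond 1.4-fold lower, against 0.984% of all clusters. The threshold was passed by 3 clusters (10362404, 10362446 and 10362456), beside 0.138% of all clusters passing in that direction. Cluster 10362446 read 8.11, 8.45 and 8.55 in KK-TAF3 and 9.02, 9.08 and 9.03 in WT-TAF3 cells. Cluster 10362456 read 4.59, 4.40 and 4.26 in KK-TAF3 and 5.74, 5.60 and 5.91 in WT-TAF3 cells.

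Set against WT-TAF3 shX, differentiated KK-TAF3 sh-PIP4K2B cells showed no shared direction. The median change was -0.01, with 9 clusters above 0 and 10 below. None passed the threshold, beside 1.17% of all clusters. At an unadjusted p below 0.05 with the fold limit 1, cluster 10362436, passed, and the share of all clusters by that rule was not computed. The arrays overlapped in 17 clusters. Cluster 10362422, for example, read 10.50, 10.47 and 10.54 in KK-TAF3 sh-PIP4K2B and 10.32, 10.45 and 10.54 in WT-TAF3 shX cells. The 2 whose arrays did not overlap were 10362436 (0.53) and 10362404 (0.18), both higher in KK-TAF3 cells, where 21.1% of all clusters were higher in this way.

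After etoposide KK-TAF3 and WT-TAF3 cells with sh-PIP4K2B did not differ past the threshold in any single cluster. The change was below 0 for 17 of 19, against 52.9% of all clusters, with a median of -0.27. None passed limma's threshold, where 0.25% of all clusters did. At an unadjusted p below 0.05 with the fold limit 1 passed, and the share of all clusters by that rule was not computed. In 3 clusters the arrays of the genotypes did not overlap and those of KK-TAF3 were lower, against 3.83% of all clusters. They were 10362446 (7.00 to 7.24 in KK-TAF3 against 7.40 to 7.46 in WT-TAF3 cells), 10362458 (4.32 to 4.70 against 4.77 to 4.96) and 10362462 (3.89 to 4.26 against 4.63 to 4.77). Cluster 10362404 read 8.25, 8.30 and 8.40 in KK-TAF3 and 8.90, 8.35 and 8.48 in WT-TAF3 cells, a change of -0.26 with 95% limits of -0.53 to 0.0042. Cluster 10362424 had the lowest estimate, -1.16, with 3.89, 3.68 and 5.41 in KK-TAF3 and 5.84, 5.38 and 5.24 in WT-TAF3 cells. The third of its KK-TAF3 arrays overlapped the WT-TAF3 arrays, and its adjusted p was 0.314 by limma.

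KK-TAF3 sh-PIP4K2B cells after etoposide stood below WT-TAF3 shX cells in all 19 clusters, against 47.7% of all clusters, with a median of -0.74 (shX higher by 1.68-fold). Past the threshold 9 clusters fell and none rose, where 0.292% of all clusters fell. In 13 every KK-TAF3 array lay below every shX array, against 5.45% of all clusters. Cluster 10362404 showed the smallest adjusted p, with 8.25, 8.30 and 8.40 in KK-TAF3 sh-PIP4K2B against 9.53, 9.36 and 9.19 in WT-TAF3 shX cells (change -1.04, SE 0.12, adjusted p = 3.14e-04 by limma). Cluster 10362424 had the largest fall, -1.86 (SE 0.38, adjusted p = 0.0174 by limma), between 3.89, 3.68 and 5.41 in KK-TAF3 sh-PIP4K2B and 6.68, 5.98 and 5.89 in WT-TAF3 shX cells. Its KK-TAF3 mean of 4.32 lay above only 7.99% of all clusters, and the call was lost in 3 of 6 leave-one-out runs. All 3 clusters that depletion lowered in WT-TAF3 cells were among the 9, and both comparisons share the shX arrays. Without shX replicate 1, or without KK-TAF3 replicate 1, 4 clusters passed. In the 6 arrays alone 1 did.

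Trdn was lower in etoposide-treated than in differentiated cells of every genotype. These comparisons use the differentiated arrays that had a part in the choice of the gene, so the counts past the threshold describe the pattern and support nothing. In KK-TAF3 sh-PIP4K2B cells the median change was -1.69, and 16 clusters passed the threshold lower, beside 3.82% of all clusters. In WT-TAF3 sh-PIP4K2B cells it was -2.34 (differentiated higher by 5.07-fold), and all 19 passed lower, beside 5.16%. In WT-TAF3 shX cells it was -0.85, and 13 passed lower, beside 2.06%. In WT-TAF3 sh-PIP4K2B cells every etoposide-treated array lay below every differentiated array in all 19 clusters, against 16.5% of all clusters. Such clusters numbered 18 in KK-TAF3 sh-PIP4K2B cells, against 16% of all clusters, and 14 in shX cells, against 17.7%.

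Cluster 10362436 had the lowest estimate in WT-TAF3 sh-PIP4K2B cells, -3.38, with 6.03, 5.28 and 5.44 after etoposide and 8.78, 9.14 and 8.96 after differentiation. In WT-TAF3 shX cells the same cluster read 6.61, 6.09 and 5.87 after etoposide and 7.44, 7.53 and 7.84 after differentiation, a change of -1.42. Its depleted arrays lay higher than shX after differentiation, and their mean lay lower than that of shX after etoposide. Clusters 10362432 and 10362450 changed least among those with a mean signal above 5 in both depleted genotypes, at -1.03 and -0.996 in KK-TAF3 and -1.18 and -1.23 in WT-TAF3 sh-PIP4K2B cells. They were also the lowest of the 19 on depletion after differentiation.

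**Figure D4:**
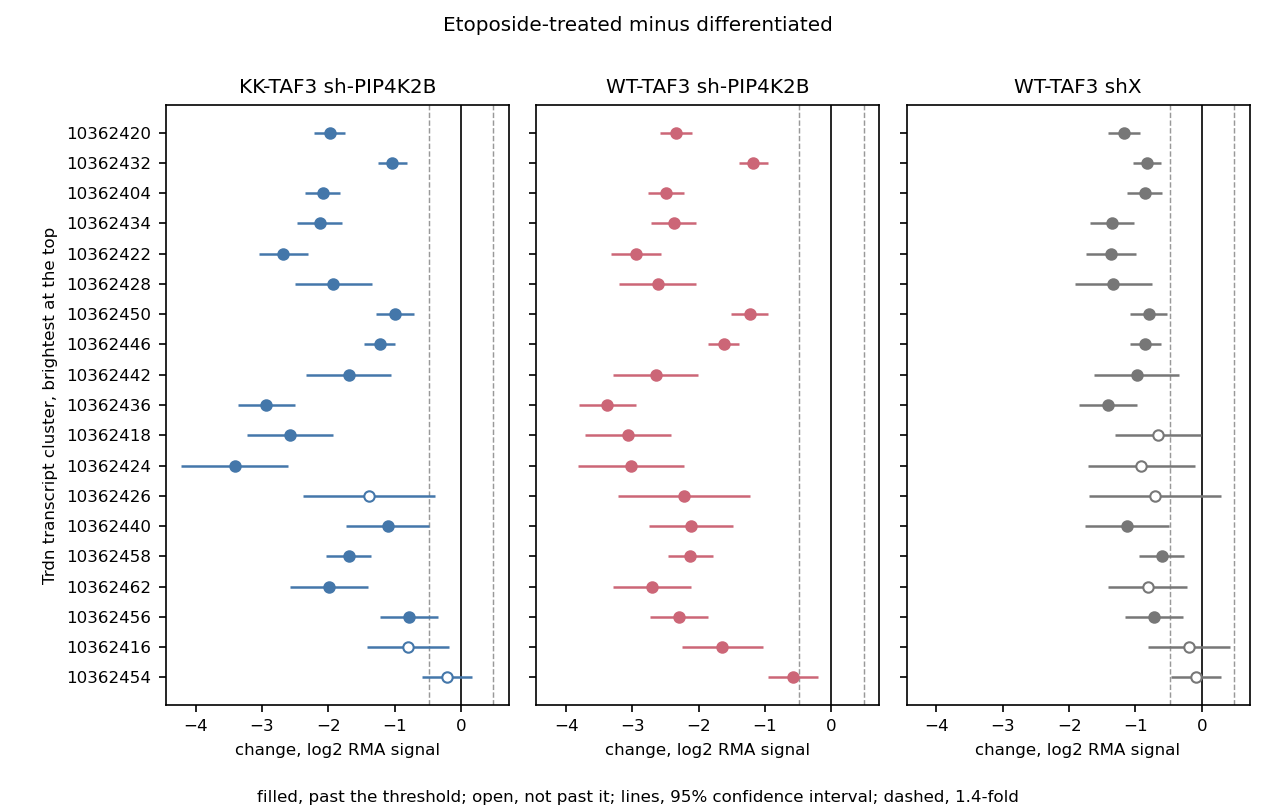
Etoposide-treated minus differentiated cells in log2 RMA signal for the 19 Trdn clusters in each genotype, brightest at the top. Lines are 95% confidence intervals, filled points passed the threshold and dashed lines mark 1.4-fold. All points lie left of 0, around medians of -1.69 in KK-TAF3 sh-PIP4K2B, -2.34 in WT-TAF3 sh-PIP4K2B and -0.85 in WT-TAF3 shX cells.

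Muscle markers moved with part of this pattern. Of the 10 skeletal markers 5 were lower past the threshold in differentiated KK-TAF3 sh-PIP4K2B cells than in WT-TAF3 sh-PIP4K2B cells, where 0.138% of all clusters were. The same 5 were lower than in WT-TAF3 shX cells, where 0.408% of all clusters were. They were Myog, encoding the differentiation factor myogenin, Mymk, encoding the fusion protein myomaker, and Myh3, Acta1 and Actc1, encoding contractile proteins. None of the 10 passed on depletion after differentiation, where 0.773% of all clusters did. Their summed log2 signal was 96.1 to 96.6 in KK-TAF3 sh-PIP4K2B, 101.5 to 102.0 in WT-TAF3 sh-PIP4K2B and 99.2 to 99.6 in WT-TAF3 shX cells after differentiation. After etoposide the sum was 95.9 to 96.6 in KK-TAF3 sh-PIP4K2B, 96.1 to 97.3 in WT-TAF3 sh-PIP4K2B and 97.3 to 97.7 in WT-TAF3 shX cells. None of the 10 passed between genotypes there, where 0.25% to 0.771% of all clusters did. Between etoposide and differentiation 4 of the 10 were lower and 2 higher in WT-TAF3 shX cells, beside 2.06% and 3.78% of all clusters. In WT-TAF3 sh-PIP4K2B cells 5 were lower and 1 higher, beside 5.16% and 3.21%. In KK-TAF3 sh-PIP4K2B cells none was lower and 1 was higher, beside 3.82% and 3.1%. Mymk had the lowest estimate in both WT-TAF3 genotypes, -1.81 in WT-TAF3 sh-PIP4K2B and -1.28 in shX cells. The macrophage marker Cd68 was higher after etoposide in KK-TAF3 sh-PIP4K2B (0.60) and shX (0.52) cells, where 3.1% and 3.78% of all clusters were. Markers of the fat cell, heart, endothelial and macrophage lists gave no call between genotypes in either treatment, where 0.25% to 1.17% of all clusters passed. The part of the state of differentiation in the Trdn values was not tested, and in these bulk samples fewer expressing cells and less RNA per cell cannot be told apart.

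Trdn was set beside the rest of the calcium release apparatus. Of a list of 34 genes of calcium release and the sarcoplasmic reticulum, 31 were measured, each by its brightest cluster. After etoposide none passed between genotypes in the depletion, KK-TAF3 or KK-TAF3 against shX comparison, where 0.546%, 0.25% and 0.771% of all clusters did. No call among 31 genes is near these shares. None passed at an unadjusted p with the fold limit either, a rule for which the share of all clusters was not computed in these fits. The 3, 0 and 9 Trdn clusters that passed are probe sets of 1 gene, whereas each gene of the list has 1 cluster, so the counts are not alike. The median change of the list on depletion was -0.01 after etoposide and 0.06 after differentiation.

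Among the calcium-binding proteins of the store, Casq2, a calsequestrin, read 6.46, 6.56 and 6.54 in KK-TAF3 sh-PIP4K2B, 7.63, 7.74 and 7.86 in WT-TAF3 sh-PIP4K2B and 6.91, 6.96 and 7.17 in WT-TAF3 shX cells after differentiation. Its change on depletion was 0.73, where 2 of the 31 genes passed higher, beside 0.495% of all clusters. In KK-TAF3 against WT-TAF3 cells its change was -1.22, and it alone passed, beside 0.138% of all clusters passing lower. In KK-TAF3 sh-PIP4K2B against shX cells (-0.49) it again was the only gene to pass, beside 0.408% passing lower. The list was chosen with earlier results of these data known, so these calls are a description. After etoposide the estimate for Casq2 on depletion was -0.27 (95% limits -0.45 to -0.09, adjusted p = 0.183 by limma). Srl, encoding sarcalumenin, a luminal calcium-binding protein, was the other gene higher on depletion after differentiation (0.57). It lost this call in 2 of 8 other settings, and its estimate after etoposide was 0.06. Casq1, the other calsequestrin, did not pass in any of the 9 comparisons.

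Ryr1, the ryanodine receptor of skeletal muscle, stayed between 7.28 and 7.86 on all 18 arrays and passed in none. Asph, whose products include junctin, a relative of triadin in the same complex, lay between 9.77 and 10.17 and passed in none either. Between etoposide and differentiation the list moved both ways. In WT-TAF3 shX cells 4 of its genes rose, where 3.78% of all clusters did, and none fell: Jph2, a junctophilin that ties the store to the surface membrane (0.65), Cacnb1 (0.56) and Cacng1 (0.99), subunits of the voltage sensor, and Homer1, a scaffold protein (0.54). In WT-TAF3 sh-PIP4K2B cells Casq2 (-1.15) and Cacna2d1 (-0.69), another subunit of the voltage sensor, fell, where 5.16% of all clusters did. Cacng1 rose there (0.80), where 3.21% of all clusters rose. In KK-TAF3 sh-PIP4K2B cells only Cacng1 passed (0.66), where 3.1% of all clusters rose. The medians of the list in these 3 genotypes were 0.08, -0.02 and 0.04.

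**Figure D5:**
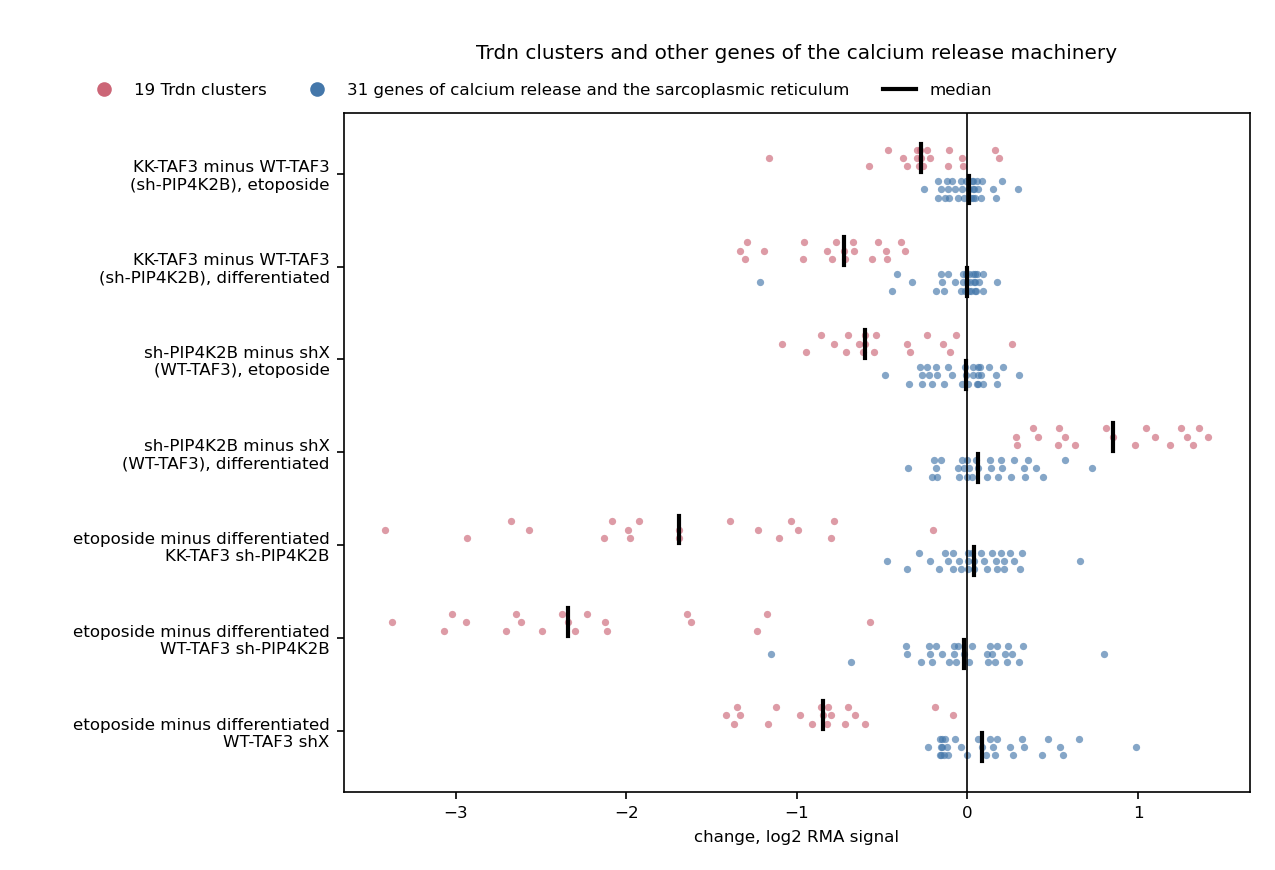
Changes in log2 RMA signal of the 19 Trdn clusters (red) and of 31 other genes of calcium release and the sarcoplasmic reticulum (blue) in 7 comparisons, with the median of each set as a black bar. The medians of the list lie between -0.02 and 0.08, and those of the Trdn clusters between -2.34 and 0.85.

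Genes with a pattern like that of the centred Trdn summary were looked for by 2 measures. Over all 18 arrays, with each gene centred on its own mean, C1ra, Lrp4, Naalad2, Adamts4, Cpa4 and Clu lay nearest among 18352 genes, at root mean square distances of 0.26 to 0.33 log2 units, where the median gene lay at 0.95. C1ra, which encodes a protease of the complement system, averaged 8.08, 8.14 and 8.34 after etoposide and 9.57, 9.95 and 9.54 after differentiation in KK-TAF3 sh-PIP4K2B, WT-TAF3 sh-PIP4K2B and WT-TAF3 shX cells. Over the 9 differentiated arrays, Sprr2b, Klf8, Lrrn1, Tnnt3, Ppef1 and Hjv had the highest Pearson's r among 559 genes with an SD of at least 0.25 (0.90 to 0.93). Tnnt3 encodes the troponin T of fast skeletal muscle, and its r over the 9 etoposide-treated arrays was 0.71, whereas that of Sprr2b was -0.17 and that of Klf8 -0.31. The genes depend on the summary used. With the median of uncentred levels, which was the value of cluster 10362436 on 7 of the 9 differentiated arrays, 2 of the first 6 genes (Lrp4 and Adamts4) and 0 of the second 6 were the same. The centred summary was chosen after seeing the data.

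None of 4 genes that neighbour Trdn in the annotation passed the threshold in any comparison, where 0.25% to 8.36% of all clusters did. With 4 genes, no call is near these shares. The ubiquitin ligase gene Rnf217 lay between 10.66 and 11.06 on all 18 arrays, and its estimates in the 9 comparisons ran from -0.27 to 0.11. Those of Nkain2 ran from -0.43 to 0.38, those of Clvs2 from -0.18 to 0.17 and those of Sult3a2 from -0.12 to 0.07. Cluster 10362448, whose identifier falls among those of Trdn but which has no gene in the annotation used, lay between 3.40 and 3.91 and passed in none.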

How the data were processed

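RNA from 18 cultures of C2C12 cells, 3 in each of 6 groups, was hybridised to Affymetrix mouse gene arrays. The deposited values are log2 signals that the authors made by RMA in Affymetrix Expression Console (version not stated), a procedure that corrects background, normalises arrays to each other and summarises probes. No genome build is given in the sources used here. The deposited table has no detection calls, and the number of arrays limits the precision. Groups were taken from the labels. The paper calls the arrays biological triplicates, whereas nothing in the labels says that cultures were separate, so p-values measure the spread between these arrays. A platform annotation names 1 gene for 21789 clusters, several for 1621 and none for 12146, and its symbols can be old. The supplement of the study names another chip generation than the one this annotation belongs to. The annotation was used because most of the deposited identifiers are found in it, and the choice of the 19 clusters rests on it.

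One model of 6 group means was fitted to all 35556 clusters with limma 3.58.1 in R 4.3.3, with 12 residual and 2.90 prior degrees of freedom. The threshold was a Benjamini-Hochberg adjusted p below 0.05 over all clusters and a change above 1.4-fold, after the limits in the study's methods, which name no test. Confidence limits are at 95%. The code was tested on simulated data. All 19 Trdn clusters were named, together with the calcium list (brightest cluster of each gene) and the 6 nearest genes by each of 2 likeness measures, root mean square distance over all arrays and Pearson's r over differentiated arrays. The gene, the lists and the tests were chosen with earlier results of these data known. Adjusted p-values are printed only within etoposide-treated cells. Elsewhere Trdn counts past the threshold are a description. Python 3.11.15 with matplotlib 3.10.9 drew the figures.

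Other settings tried were calls by unadjusted p, calls without the fold limit, the brightest cluster of each other gene, clusters above the median signal, only the groups compared, eBayes with trend and robust settings, quantile normalisation within treatment, centring on or adjusting for array medians, the replicate number as a block, and leaving out each array. Array titles carry replicate numbers. Deviations of same-numbered arrays correlated above 0.1 in every pair only for depletion in etoposide-treated cells (r between 0.26 and 0.29), so the numbers were taken to pair those arrays. The pairing by number rests on the data and not on the labels. The main model did not use it, and the adjusted p-values are without pairing unless the block is named.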

Additional observations from a re-analysis of the deposited data

Results flagged for a closer look

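For 9 Trdn clusters every PIP4K2B-depleted array lay below every shX array after etoposide and above every shX array after differentiation, in WT-TAF3 cells. The difference between the treatments was not tested. The change (WT-TAF3 sh-PIP4K2B minus shX, log2) in cluster 10362420 was -0.64 after etoposide and 0.53 after differentiation. In cluster 10362404 it was -0.78 after etoposide and 0.85 after differentiation, and in 10362422 it was -0.95 and 0.63. In 10362434 it was -0.61 after etoposide and 0.41 after differentiation, and in 10362442 it was -0.86 and 0.81. The changes after etoposide and after differentiation were -1.09 and 1.32 in 10362418, -0.70 and 1.41 in 10362424, -0.60 and 1.29 in 10362462 and -0.53 and 1.05 in 10362456. The 9 are probe sets of 1 gene on the same 12 arrays, and 1.87% of all clusters had this pattern. Groups of 3 arrays are too small for the search for outlying samples.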

How the results depend on the processing

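No called result changed sign under any alternative run, but calls were lost. Of 246 alternative runs of 18 single results with a test, 38 lost the call. For KK-TAF3 sh-PIP4K2B against shX after etoposide, cluster 10362462 lost it in 5 of 6 leave-one-out runs and 3 of 7 other settings. Cluster 10362446 lost it in 4 of 6 and 2 of 8, whereas 10362404 lost it in none. On depletion after differentiation, 9 Trdn clusters passed the threshold, against 4 among clusters above the median signal (9 Trdn clusters left) and 3 with the array median as a covariate, and the median change of 0.85 became 0.54 and 0.50 in the same settings. For KK-TAF3 against WT-TAF3 after differentiation the count of 3 became 14 by unadjusted p, 7 with the brightest cluster of each other gene, 5 with only the groups compared and 6 with the covariate, and the median of -0.72 became -0.56 above the median signal. For KK-TAF3 sh-PIP4K2B against shX after differentiation, and for KK-TAF3 against WT-TAF3 after etoposide, 0 became 1 by unadjusted p. On depletion after etoposide 3 became 10 by unadjusted p, 5 with the brightest cluster of each other gene and 0 with only the groups compared. It was also 0 with the replicate block in a fit of those 6 arrays, an alternative chosen after seeing the data. With the replicate block in the fit of all 18 arrays the same 3 passed there, and the counts were 7 for depletion after differentiation and 8 for KK-TAF3 sh-PIP4K2B against shX after etoposide. For that last comparison 9 became 5 above the median signal and 1 with only the groups compared. For etoposide against differentiation, 19 became 9 in WT-TAF3 sh-PIP4K2B and 16 became 9 in KK-TAF3 sh-PIP4K2B cells above the median signal, where 9 Trdn clusters were left, and the median in WT-TAF3 sh-PIP4K2B cells became -2.03 with the covariate. The share of all clusters by unadjusted p was not computed for the fit of all 18 arrays. Shares in the other runs are not set beside these counts. The counts therefore show how the number of Trdn clusters moved, and not how it stood against all clusters. Where clusters were left out, fewer were tested. In the other settings the cause was not tested.

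Leaving out 1 array at a time gave 3 to 9 clusters and medians of 0.76 to 1.12 for depletion after differentiation, 2 to 2 and -0.77 to -0.68 for KK-TAF3 against WT-TAF3, and 0 to 1 and -0.080 to 0.16 for KK-TAF3 sh-PIP4K2B against shX. After etoposide the ranges in these comparisons were 1 to 8 and -0.71 to -0.39, 0 to 1 and -0.30 to -0.16, and 4 to 9 and -0.80 to -0.54. For etoposide against differentiation they were 14 to 17 and -1.78 to -1.70 in KK-TAF3 sh-PIP4K2B, 18 to 19 and -2.48 to -2.24 in WT-TAF3 sh-PIP4K2B, and 9 to 14 and -0.98 to -0.72 in shX cells. Depletion after differentiation gave 5, 4 and 3 clusters without WT-TAF3 sh-PIP4K2B replicates 1, 2 and 3, and 3 without shX replicate 1 or 2. KK-TAF3 sh-PIP4K2B against shX gave 1 without differentiated shX replicate 3, and KK-TAF3 against WT-TAF3 after etoposide gave 1 without KK-TAF3 replicate 3. Cluster 10362404 passed on depletion after etoposide whichever array was left out. Cluster 10362422 did not pass without shX replicate 2 or WT-TAF3 sh-PIP4K2B replicate 2 or 3, nor 10362420 without WT-TAF3 sh-PIP4K2B replicate 2.

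Centring arrays on their medians changed the split of all calls, higher against lower: 176 and 99 became 319 and 46 for depletion after differentiation, 270 and 145 became 574 and 77 for KK-TAF3 sh-PIP4K2B against shX after differentiation, 62 and 132 became 34 and 140 for depletion after etoposide, and 1141 and 1833 became 573 and 2786 for etoposide against differentiation in WT-TAF3 sh-PIP4K2B cells. In KK-TAF3 sh-PIP4K2B cells 1101 and 1357 became 767 and 1665. The median change of the Trdn clusters kept its sign under centring except in KK-TAF3 sh-PIP4K2B against shX after differentiation, where it was 0.08 in place of -0.01.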
